A study of Rattus norvegicus with 18 samples.

Results

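The epithelial sodium channel, ENaC, and the genes of its corticosteroid control were followed in cultured rat kidney cells at different osmolalities. The 8 genes were chosen by name: the channel subunits Scnn1a, Scnn1b and Scnn1g, the mineralocorticoid receptor Nr3c2, the steroid-inactivating enzyme Hsd11b2, the kinase Sgk1, the ubiquitin ligase Nedd4l and the steroid target Tsc22d3. All 8 were found by their single gene symbol, each with 1 array feature, among 28328 features and 14499 genes with 1 symbol.

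ENaC lets sodium enter principal cells of the collecting duct across the apical membrane, and the Na,K-ATPase moves it out on the other side. Aldosterone binds the mineralocorticoid receptor, which raises transcription of the channel's alpha subunit and of Sgk1. The kinase phosphorylates Nedd4l, and Nedd4l otherwise ubiquitinates the channel and removes it from the membrane. Hsd11b2 turns glucocorticoids into inactive steroids and so leaves the mineralocorticoid receptor to aldosterone.

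RNA came from primary inner medullary collecting duct cells of the rat kidney, the last stretch of the tubule, and was read on 18 arrays in 6 groups of 3. The 600 challenge is a culture kept at 300 mosmol/kg and then exposed to 600 mosmol/kg for 24 h, and the 900 challenge is a culture kept at 600 mosmol/kg and then exposed to 900 mosmol/kg for 24 h. A second arm of either challenge received 5 µM cyclosporin A, which blocks calcineurin, a phosphatase. The other groups are the 600 culture and the 300 culture, kept at those osmolalities with no challenge and no drug. No mock challenge at unchanged osmolality was analysed here, so the effects of hypertonicity, of the change of medium and of another day in culture cannot be told apart. The labels give no steroid content of the medium, no strain, age or sex, no length of culture, and no origin of the 3 arrays of a group, which may share animals or cultures, so that the spread behind the p-values may be technical.

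Levels are logarithms as deposited, of a base not given in the sources used, and differences are in log units. Fold changes are therefore given for base 2 and for the natural logarithm. The lower quartile of all features lay between 2.476 and 2.696 on the 18 arrays, and levels under it are not shown to stand above background. The test was limma's, fitted over the whole array, and a gene was called where its Benjamini-Hochberg adjusted p was under 0.05. Errors of levels are SD with n = 3, and errors of differences are SE. Non-overlap of the arrays of compared groups was common. It held for 32.3% of all features in the 600 challenge and 31.8% in the 900 challenge, each against its culture. Between the 600 and 300 cultures it held for 32.8%.

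The labelled cell type was checked against its markers. All 8 measured principal cell markers were called higher in the 600 culture than in the 300 culture, against 8.33% of all features. The water channel gene Aqp2, which defines these cells, averaged 6.497 in the 600 culture and 1.61 in the 300 culture, where it lay under the lower quartile. The log levels of the 8 principal cell markers summed to 28.38 to 29.19 on the arrays of the 600 challenge, 54.93 to 55.69 in the 900 challenge, 49.18 to 51.2 in the 600 culture and 26.02 to 27.76 in the 300 culture. With cyclosporin A they summed to 25.84 to 26.36 in the 600 challenge and 53.88 to 54.51 in the 900 challenge. The sums of 6 general epithelial markers lay much closer together, at 46.37 to 46.46, 46.32 to 46.53, 46.9 to 47.25 and 46.32 to 46.45 in the same order of groups, although single members moved in opposite directions. Of these 6 markers 1 rose and 3 fell in each challenge, and 2 were higher and 2 lower in the 600 culture than in the 300 culture. Over all features 14.4%, 17.4% and 17.2% were called in either direction in the 600 challenge, the 900 challenge and between the cultures. The 8 leukocyte markers summed to 36.23 to 37.95 in the 600 challenge, 29.09 to 29.58 in the 900 challenge, 38.58 to 39.95 in the 600 culture and 46.35 to 46.83 in the 300 culture. In the same 3 comparisons 6, 7 and 7 of the 8 were called lower and none higher. The 9 fibroblast markers summed to 43.53 to 44.14 in the 600 challenge, 41.77 to 42.41 in the 900 challenge, 46.98 to 47.31 in the 600 culture and 49.9 to 50.55 in the 300 culture. Of the 9, 6, 7 and 5 were called lower in these comparisons and none higher. The 4 measured loop of Henle markers summed to 13.18 to 14.23, 21.34 to 21.77, 17.43 to 18.17 and 11.1 to 12.09 in the same order of groups. Aqp1, Bsnd and Slc12a1 were called higher in the 600 challenge and the 600 culture, and Aqp1 and Bsnd in the 900 challenge. Umod, the remaining marker, was not called and averaged 2.67, 2.87, 2.61 and 2.69 in that order, near the lower quartile. Bsnd averaged 1.88 in the 600 challenge and 1.26 in the 300 culture, with all arrays of both groups under the lower quartile. Among intercalated cell markers 5 of 7 averaged under the lower quartile in every group. The other intercalated cell markers averaged above the lower quartile in every group. Slc26a4 averaged 6.12 in the 600 challenge, 3.42 in the 900 challenge, 3.61 in the 600 culture and 6.15 in the 300 culture, and Car2 averaged 6.31, 7.10, 7.38 and 5.79 in the same order. Slc26a4 was called lower and Car2 higher in the 600 culture than in the 300 culture. The 5 measured endothelial markers summed to 21.52 to 22.05 in the 600 challenge, 22.68 to 23.23 in the 900 challenge, 24.52 to 25.34 in the 600 culture and 24.94 to 25.23 in the 300 culture. Of them 5 of 5 were called lower in the 600 challenge and 3 of 5 in the 900 challenge, against 14.4% and 17.4% of all features called in either direction. Tek and Kdr were called higher, and Cdh5 and Tie1 lower, in the 600 culture than in the 300 culture. None of these markers averaged 0 in any group. In bulk RNA, fewer cells of a type and less RNA per cell cannot be told apart, and the part of the cell mix in the results below was not tested.

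Of the 8 genes, 5 were higher in the 600 culture than in the 300 culture and none was lower, against 8.33% of all features called higher and 17.2% called in either direction. They were Nr3c2, Scnn1a, Tsc22d3, Nedd4l and Sgk1, in order of the size of the difference. Scnn1b, Scnn1g and Hsd11b2 did not pass the test, and their features read near or under the lower quartile in every group. The median difference of the 8 genes was 0.41 log units, against 0.002 over all features. Their levels on each array are shown in the plot of levels by group.

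**Figure D1:**
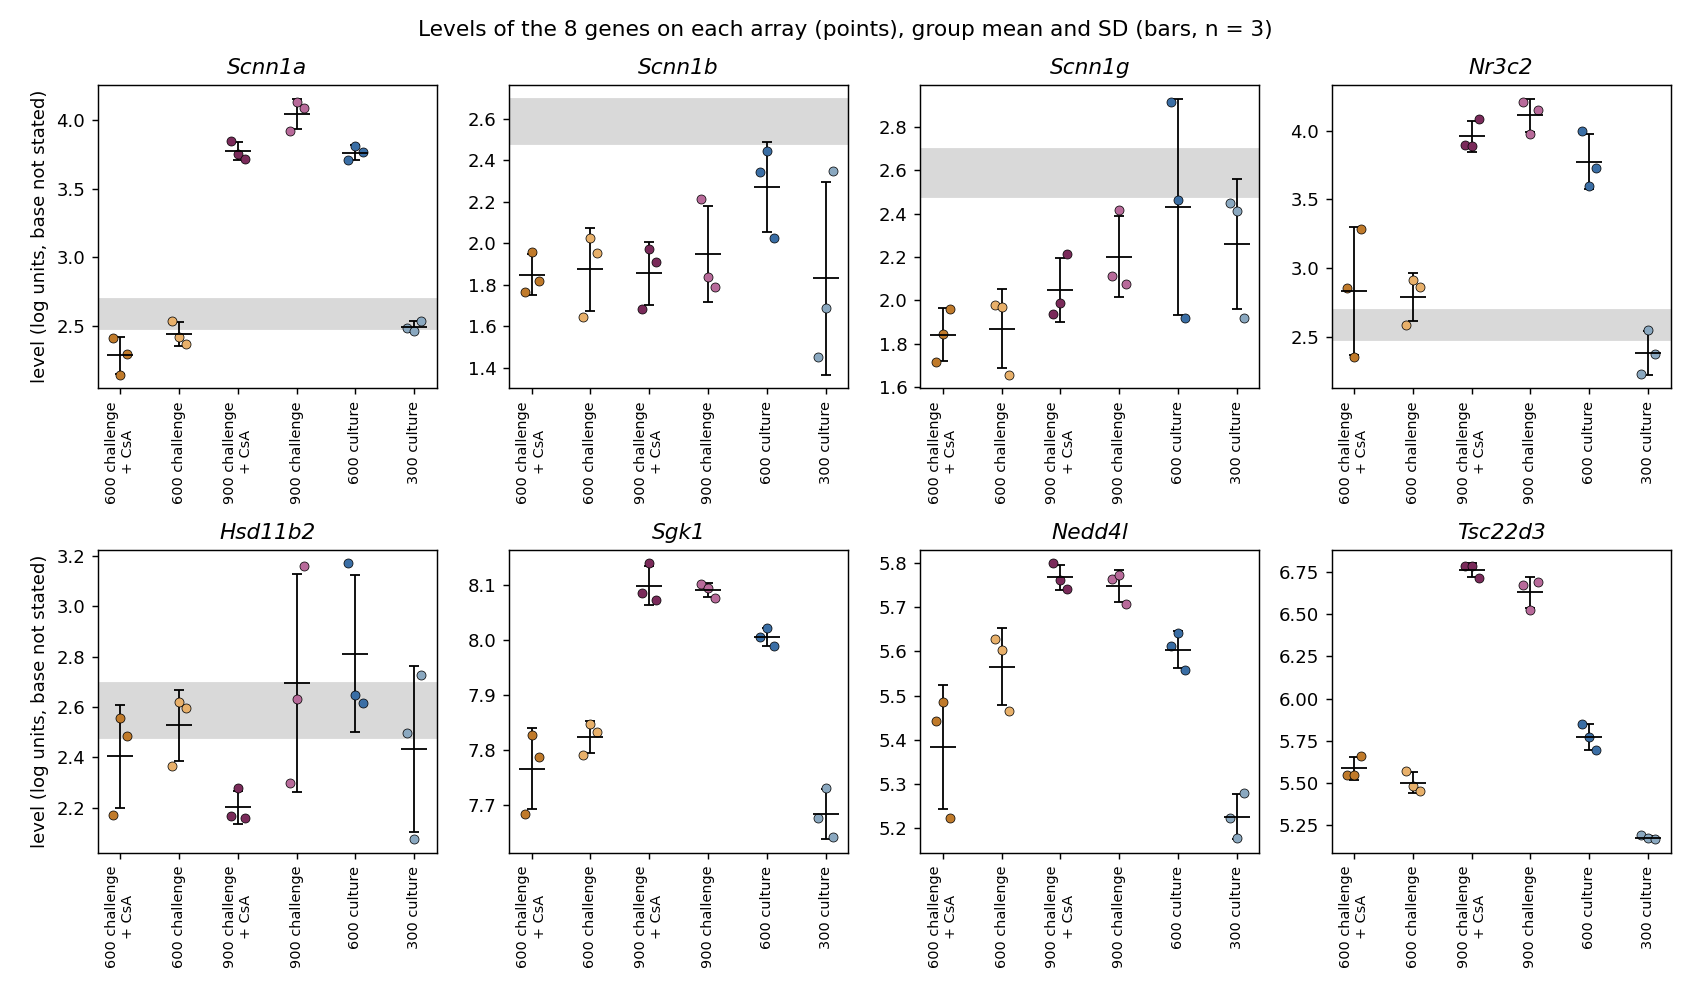
Levels of the 8 genes in log units (base not stated) on each array, with points for arrays and bars for the group mean and SD (n = 3). The grey band, drawn where levels reach it, spans the arrays' lower quartiles from 2.476 to 2.696. Scnn1a, Nr3c2, Sgk1 and Tsc22d3 are higher on each of the 9 arrays that began from the 600 culture than on any of the 9 that began from the 300 culture. Each set of 9 pools 3 groups, and the share of all features split this way was not counted.

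Scnn1a encodes the alpha subunit, which the channel needs to conduct. In cells from the 300 culture it read 2.42, 2.15 and 2.30 in the 600 challenge with cyclosporin A and 2.54, 2.42 and 2.37 in the 600 challenge, against 2.48, 2.46 and 2.54 in the 300 culture. In cells from the 600 culture it read 3.85, 3.76 and 3.72 in the 900 challenge with cyclosporin A and 3.92, 4.13 and 4.09 in the 900 challenge, against 3.71, 3.81 and 3.77 in the 600 culture. The 9 arrays that began at 300 mosmol/kg all stayed at or below 2.54, and the 9 that began at 600 mosmol/kg all stood at or above 3.71. How many of all features are split in this way was not counted. The difference between the 600 and 300 cultures was 1.27 ± 0.07 (limma adjusted p = 1.35e-08), which is 2.41-fold in base 2 or 3.55-fold in natural units. Because the level in the 300 culture lay under the lower quartile, the size of this difference is less sure than its direction.

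Exposure to 600 mosmol/kg for 24 h did not bring Scnn1a to the level of cells kept there. The 600 challenge differed from the 300 culture by -0.05 ± 0.07 (95% confidence interval -0.21 to 0.11, limma adjusted p = 0.738) and stood well below the 600 culture, with a difference of -1.32 ± 0.07 (limma adjusted p = 9.88e-09). All arrays of the 600 challenge and of the 300 culture lay under the lower quartile, so a small acute change could be missed. After the 900 challenge Scnn1a rose by 0.28 ± 0.07 over the 600 culture (limma adjusted p = 0.016), with the groups not overlapping. That call was lost without replicate 1 of the 600 culture (0.25, adjusted p = 0.0619), without replicate 2 of the 900 challenge (0.24, adjusted p = 0.0739) and without replicate 3 of the 900 challenge (0.26, adjusted p = 0.0596). It was also lost with only these groups in the fit (adjusted p = 0.0773) and with a mean-variance trend and robust prior (adjusted p = 0.0777).

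Scnn1b and Scnn1g encode the beta and gamma subunits, which carry the channel with alpha to the membrane. Scnn1b lay under the lower quartile on all 18 arrays, with a lowest value of 1.45 and a highest of 2.44, and Scnn1g lay under it on 17 of 18, with values from 1.66 to 2.91. Neither passed the test in any of the 10 comparisons. In the 600 against the 300 culture the difference was 0.44 ± 0.20 for Scnn1b (limma adjusted p = 0.161) and 0.17 ± 0.21 for Scnn1g (limma adjusted p = 0.69). Single arrays decide some of these: without replicate 3 of the 300 culture Scnn1b would pass (0.70, adjusted p = 0.00862). Without replicate 3 of the 600 culture Scnn1g would pass as lower in the 600 challenge than in the 600 culture (-0.82, adjusted p = 0.00728, against -0.56 and 0.086 with it), and as lower in the 900 challenge with cyclosporin A than in the 600 culture (-0.64, adjusted p = 0.0299, against -0.39 and 0.259 with it). Levels this low do not show whether either subunit was expressed, and small changes could be missed with 3 arrays a group.

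Nr3c2, the mineralocorticoid receptor, had the largest difference of the 8 genes between the cultures. It read 2.85, 2.36 and 3.29 in the 600 challenge with cyclosporin A, 2.59, 2.92 and 2.86 in the 600 challenge, and 2.23, 2.55 and 2.38 in the 300 culture. It read 3.89, 3.89 and 4.09 in the 900 challenge with cyclosporin A, 4.21, 3.98 and 4.15 in the 900 challenge, and 3.995, 3.60 and 3.73 in the 600 culture. The 600 culture lay above the 300 culture on every array, with a difference of 1.39 ± 0.18 (limma adjusted p = 5.93e-05), 2.62-fold in base 2 or 4.01-fold in natural units. After the 600 challenge its difference from the 300 culture was 0.40 ± 0.18 and did not pass (limma adjusted p = 0.18). The 3 arrays of the challenge all lay above the 3 of the culture, but 32.3% of all features did not overlap in this comparison. The 600 challenge stayed below the 600 culture, with a difference of -0.99 ± 0.18 (limma adjusted p = 0.00142). The 900 challenge differed from the 600 culture by 0.34 ± 0.18 (limma adjusted p = 0.265), with overlapping groups. The level of Nr3c2 in the 300 culture was under the lower quartile on all 3 arrays, as for Scnn1a.

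Hsd11b2, whose enzyme inactivates corticosterone in the rat, read between 2.07 and 3.17 and lay under the lower quartile on 11 of 18 arrays. Its 3 arrays in the 600 culture, at 3.17, 2.65 and 2.62, spread widely, and its difference from the 300 culture was 0.38 ± 0.21 (limma adjusted p = 0.291). The lowest group was the 900 challenge with cyclosporin A, at 2.17, 2.28 and 2.16, below all arrays of the 600 culture, with a difference of -0.61 ± 0.21 that did not pass (limma adjusted p = 0.0633) except with a trend and robust prior (adjusted p = 0.0479). In this comparison 31.3% of all features did not overlap. Hsd11b1, whose enzyme works in the other direction in most cells, averaged 4.003 in the 600 culture and 4.34 in the 300 culture, and the difference of -0.33 ± 0.14 did not pass (limma adjusted p = 0.143).

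Sgk1, which was first described as induced by serum and glucocorticoids and by changes of cell volume, was bright on all arrays and moved little. It read 7.69, 7.83 and 7.79 in the 600 challenge with cyclosporin A, 7.79, 7.85 and 7.83 in the 600 challenge, and 7.68, 7.73 and 7.64 in the 300 culture. It read 8.09, 8.14 and 8.07 in the 900 challenge with cyclosporin A, 8.10, 8.09 and 8.08 in the 900 challenge, and 8.01, 8.02 and 7.99 in the 600 culture. The SD within groups was small (median 0.032), and the 9 arrays that began from the 600 culture again all lay above the 9 from the 300 culture. As for Scnn1a, the share of all features split in this way was not counted. The 600 culture was higher than the 300 culture by 0.32 ± 0.05 (limma adjusted p = 0.000117), 1.25-fold in base 2 or 1.38-fold in natural units. The 600 challenge was 0.14 ± 0.05 above the 300 culture and just missed the threshold (limma adjusted p = 0.0547). The groups did not overlap, as for 32.3% of all features. The difference passed with arrays centred on their medians (0.15, adjusted p = 0.0438), after quantile normalization (0.18, adjusted p = 0.0173), with dim features left out (adjusted p = 0.0283) and with a trend and robust prior (adjusted p = 0.0031). It did not pass with the replicate number as a block, with only these groups in the fit or with any array left out. The 600 challenge remained below the 600 culture, with a difference of -0.18 ± 0.05 (limma adjusted p = 0.0124). That call was lost without replicate 1 of the 600 challenge (-0.16, adjusted p = 0.053) and with only these groups in the fit (adjusted p = 0.0939). The 900 challenge differed from the 600 culture by 0.09 ± 0.05 and did not pass (limma adjusted p = 0.256). Its arrays all lay above those of the 600 culture, but 31.8% of all features did not overlap in this comparison.

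Nedd4l, the ligase that binds the tails of the channel subunits, was the gene of the 8 whose acute and long-term levels at 600 mosmol/kg lay closest together. It read 5.44, 5.49 and 5.22 in the 600 challenge with cyclosporin A, 5.63, 5.60 and 5.47 in the 600 challenge, and 5.22, 5.18 and 5.28 in the 300 culture. It read 5.80, 5.76 and 5.74 in the 900 challenge with cyclosporin A, 5.77, 5.77 and 5.71 in the 900 challenge, and 5.61, 5.64 and 5.56 in the 600 culture. The 600 challenge was higher than the 300 culture by 0.34 ± 0.07 (limma adjusted p = 0.0025), and the 600 culture was higher than it by 0.38 ± 0.07 (limma adjusted p = 0.000751). The direct difference between the 600 challenge and the 600 culture was -0.04 ± 0.07 (95% confidence interval -0.18 to 0.10, limma adjusted p = 0.795). The 900 challenge stood above the 600 culture on all arrays, by 0.14 ± 0.07, and did not pass (limma adjusted p = 0.168). In this comparison 31.8% of all features did not overlap. A higher Nedd4l message says nothing of the phosphorylation by which Sgk1 acts on the protein, which arrays do not measure.

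Tsc22d3, also called GILZ, is a leucine zipper protein whose gene is induced by corticosteroids and which in cell models raises ENaC at the membrane. It read 5.55, 5.54 and 5.66 in the 600 challenge with cyclosporin A, 5.57, 5.48 and 5.45 in the 600 challenge, and 5.19, 5.17 and 5.17 in the 300 culture. It read 6.79, 6.79 and 6.72 in the 900 challenge with cyclosporin A, 6.68, 6.53 and 6.69 in the 900 challenge, and 5.85, 5.77 and 5.70 in the 600 culture. No array of a challenge overlapped with its culture. Tsc22d3 rose in each challenge: by 0.33 ± 0.06 in the 600 challenge over the 300 culture (limma adjusted p = 0.00131) and by 0.86 ± 0.06 in the 900 challenge over the 600 culture (limma adjusted p = 1.53e-07). The second rise is 1.81-fold in base 2 or 2.36-fold in natural units. The rise in the 900 challenge was larger than that in the 600 challenge by 0.53 ± 0.08 (limma adjusted p = 0.00105). It was the 1 gene of the 8 for which the test of this difference passed, against 3.52% of all features called as larger and 7.58% called in either direction. For Scnn1a the same difference was 0.33 ± 0.11 (limma adjusted p = 0.0729), and it passed with dim features left out (adjusted p = 0.0464) and without replicate 1 of the 900 challenge (0.40, adjusted p = 0.039). That difference includes the step to the 600 challenge, in which Scnn1a lay under the lower quartile in both groups. For Tsc22d3 the 600 culture was higher than the 300 culture by 0.60 ± 0.06 (limma adjusted p = 2.78e-06), and the 600 challenge was below the 600 culture, with a difference of -0.27 ± 0.06 (limma adjusted p = 0.00424, but 0.0597 with only these groups in the fit).

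The starts of transcription of Sgk1 and Tsc22d3 were read in the RefSeq promoter table of the GRCr8 build, since both genes were higher in the 600 culture and are known steroid targets. The table held 9 starts of 5 of the 8 genes (3 of Sgk1, 3 of Tsc22d3 and 1 each of Scnn1b, Scnn1g and Nedd4l). The 250 bases before each start were searched on both strands for AGAACA (an arm of the glucocorticoid response element), for the whole of that element (AGAACA, any 3 bases, then TGTTCT, so that it also holds the arm) and TGGAAA (the core of the tonicity element that NFAT5 binds). The core TGGAAA stood before 2 of the 9 starts (22.2%), against 19.7% of all 33469 starts in the table, and the steroid letters before none of the 9, against 17.52% for the arm and 0.01% for the whole element. A match is a description of letters and not a site of binding. The whole element is so rare before all starts that finding none before 9 tells nothing of these genes. Bases further from the start and inexact matches were not searched, so a lack of steroid elements is not shown. Both windows with the core are given 5′ to 3′ on the gene's own strand with the core in capitals: the second of 3 starts of Sgk1 (chr1:24805571-24805820, minus strand), with the core 237 to 232 bases before the start, and the third of 3 starts of Tsc22d3 (chrX:109010035-109010284, minus strand), with the core 196 to 191 bases before the start.
Sgk1: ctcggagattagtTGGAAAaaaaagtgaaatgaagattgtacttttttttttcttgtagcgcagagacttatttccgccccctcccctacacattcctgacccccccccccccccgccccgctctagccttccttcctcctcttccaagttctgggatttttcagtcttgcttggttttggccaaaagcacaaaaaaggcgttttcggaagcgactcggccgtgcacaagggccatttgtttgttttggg
Tsc22d3: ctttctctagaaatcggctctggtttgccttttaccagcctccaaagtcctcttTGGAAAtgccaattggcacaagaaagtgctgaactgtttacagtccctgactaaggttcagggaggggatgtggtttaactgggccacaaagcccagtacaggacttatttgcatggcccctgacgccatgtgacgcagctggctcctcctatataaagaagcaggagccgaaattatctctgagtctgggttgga
The array's feature for each gene does not tell its starts apart, so no level can be given to a single start.

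The order of the 6 levels differed among the genes. For Scnn1a the only neighbouring groups that differed were the 300 culture and the 600 culture. For Nr3c2 the only such step lay between the 600 challenge with cyclosporin A and the 600 culture (limma adjusted p = 0.0019, where 17.6% of all features were called), and for Sgk1 between the 600 challenge and the 600 culture. For Tsc22d3 there were 3 such steps: the 600 challenge above the 300 culture, the 600 culture above the 600 challenge with cyclosporin A (0.19, limma adjusted p = 0.0387), and the 900 challenge above the 600 culture. For Nedd4l no neighbours differed along an order that ran from 5.23 in the 300 culture to 5.77 in the 900 challenge with cyclosporin A. Scnn1b, Scnn1g and Hsd11b2 had no neighbours that differed.

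**Figure D2:**
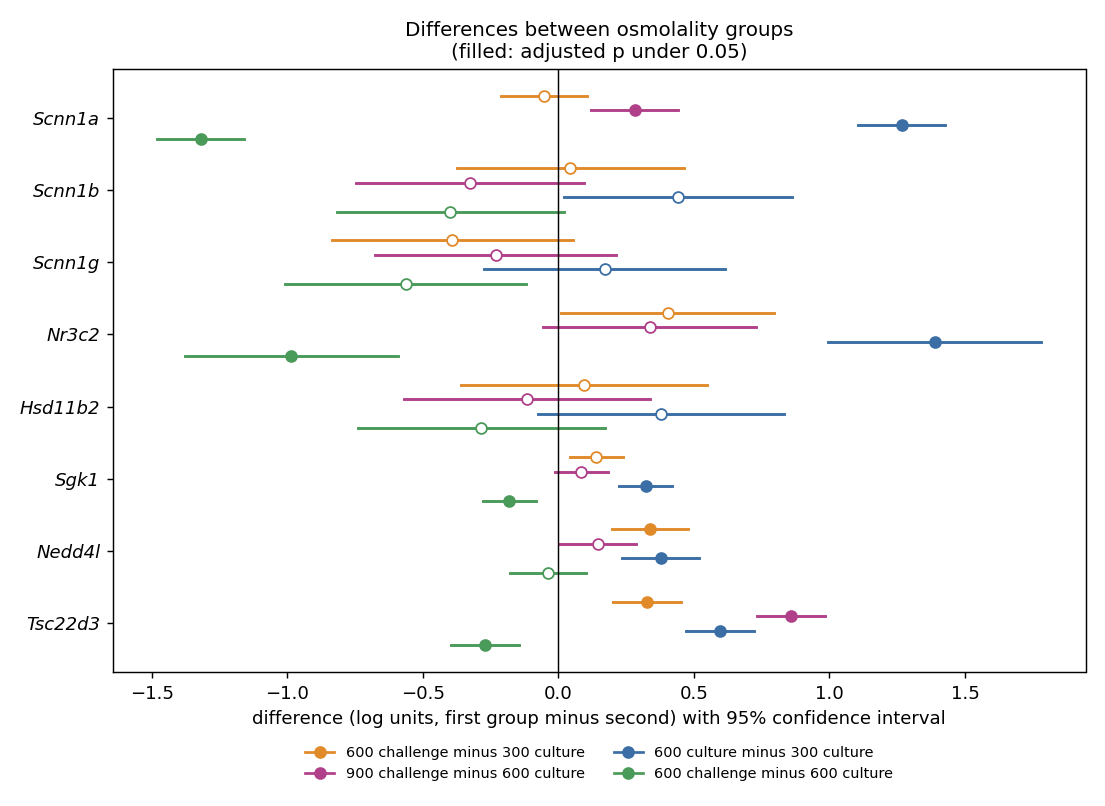
Differences in log units (first group minus second, points) with 95% confidence intervals (lines) for 4 comparisons of osmolality, filled where the adjusted p is under 0.05. Scnn1a and Nr3c2 differ most between the 600 and 300 cultures (1.27 and 1.39), Tsc22d3 rises in both challenges (0.33 and 0.86), and Nedd4l has a difference near 0 between the 600 challenge and the 600 culture (-0.04).

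Counted by comparison, 2 of the 8 genes (Nedd4l and Tsc22d3) passed as higher in the 600 challenge over the 300 culture, against 6.36% of all features called higher and 14.4% called in either direction. In the 900 challenge over the 600 culture 2 passed as higher (Tsc22d3 and Scnn1a), against 6.43% called higher and 17.4% called in either direction. A count of 2 of 8 lies above these shares, but it is small and was not tested against them, so nothing is read from it. In the 600 challenge against the 600 culture 4 passed as lower (Scnn1a, Nr3c2, Tsc22d3 and Sgk1), against 8.74% of features called lower and 16.4% called in either direction. The comparisons that use the 300 culture share its 3 arrays, and those that use the 600 culture share its 3 arrays.

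With cyclosporin A present the challenges were again set against their cultures. Tsc22d3 was higher than in the 300 culture by 0.41 ± 0.06 in the 600 challenge with the drug (limma adjusted p = 0.000183) and higher than in the 600 culture by 0.99 ± 0.06 in the 900 challenge with the drug (limma adjusted p = 2.88e-08). It was the 1 gene of the 8 that passed in each of these comparisons, against 6.21% of all features called higher (14.1% in either direction) in the 600 challenge and 7.27% (17.8%) in the 900 challenge. Nedd4l differed by 0.16 ± 0.07 in the 600 challenge with the drug (limma adjusted p = 0.146), and by 0.24 without replicate 3 of that group (adjusted p = 0.0167). Nr3c2 differed by 0.45 ± 0.18 (limma adjusted p = 0.137), and by 0.68 without replicate 2 of the 600 challenge with the drug (adjusted p = 0.00951). Scnn1a differed by -0.21 ± 0.07 from the 300 culture (limma adjusted p = 0.0834), and passed as lower after quantile normalization (-0.26, adjusted p = 0.0471) and without replicate 1 of the drug group (-0.27, adjusted p = 0.0368). Its level lay under the lower quartile on all arrays of both groups. In the 900 challenge with the drug Scnn1a differed from the 600 culture by 0.01 ± 0.07 (limma adjusted p = 0.951), and the difference of Sgk1, at 0.09 ± 0.05, passed only with a trend and robust prior (adjusted p = 0.203 in limma's usual form and 0.0404 with them).

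The drug itself was tested by setting each challenge with cyclosporin A against the same challenge without it. None of the 8 genes passed by limma in either challenge, where 0.409% of all features were called in the 600 challenge and 0.505% in the 900 challenge. At an unadjusted p under 0.05 there was 1 of 8 in the 600 challenge (Nedd4l) and 3 of 8 in the 900 challenge (Scnn1a, Hsd11b2 and Tsc22d3), against 8.49% of all features in the 600 challenge and 10.6% in the 900 challenge. The largest of these by its spread was Scnn1a, whose 3 values with the drug in the 900 challenge (3.85, 3.76 and 3.72) all lay below the 3 without it (3.92, 4.13 and 4.09), a difference of -0.27 ± 0.07 (95% confidence interval -0.43 to -0.11, limma adjusted p = 0.157). In this comparison 15.8% of all features did not overlap. In the 600 challenge the drug's difference for Scnn1a was -0.16 ± 0.07 with overlapping groups (limma adjusted p = 0.607), and all arrays of both groups lay under the lower quartile. Tsc22d3 stood 0.13 ± 0.06 higher with the drug in the 900 challenge (limma adjusted p = 0.438), Hsd11b2 differed by -0.49 ± 0.21 there (limma adjusted p = 0.427) and Nedd4l by -0.18 ± 0.07 in the 600 challenge (limma adjusted p = 0.392). For Sgk1 the intervals were -0.16 to 0.04 in the 600 challenge and -0.09 to 0.11 in the 900 challenge. The drug's difference did not itself differ between the challenges for any of the 8 genes by limma, where 0.0459% of all features were called. At an unadjusted p under 0.05 there was 1 of 8 (Nedd4l), against 7.59% of all features.

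**Figure D3:**
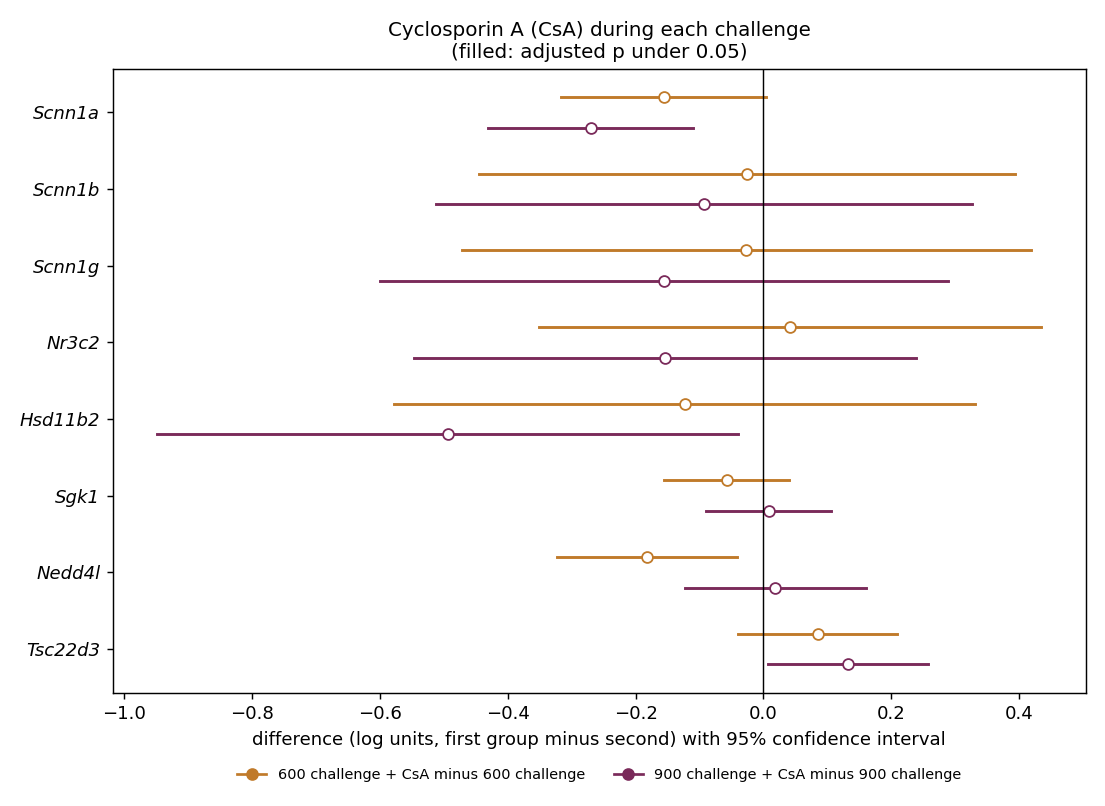
Differences in log units between each challenge with cyclosporin A (CsA) and the same challenge without it (points) with 95% confidence intervals (lines). All points are open, since none of the 8 genes passed the threshold, and the interval of Scnn1a in the 900 challenge (-0.43 to -0.11) lies below 0.

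ENaC is opened in part by proteases that cut its alpha and gamma subunits, and 8 such genes and their inhibitors were measured. In the 600 culture 4 were higher than in the 300 culture and 1 was lower. Tmprss2, a transmembrane serine protease, rose by 1.66 ± 0.12 (limma adjusted p = 1.27e-07), the proprotein convertase Furin by 0.53 ± 0.06, the channel-activating protease prostasin, Prss8, by 0.52 ± 0.09, and Serpine2, a serine protease inhibitor, by 0.53 ± 0.12. St14, or matriptase, fell by 0.21 ± 0.04. In the 600 challenge 2 of 8 rose over the 300 culture, Tmprss2 (1.20) and Furin (0.30), and Serpine2 fell by 0.71. In the 900 challenge 5 of 8 rose over the 600 culture and 1 fell: Tmprss2 (0.71), Prss8 (0.31), the protease inhibitor genes Spint1 (0.25) and Spint2 (0.22), and St14 (0.22) rose, while Serpine2 fell by 0.97. The list's median difference was 0.40, 0.06 and 0.22 in these 3 comparisons, against 0.002, 0.02 and -0.01 over all features. Over all features 17.2%, 14.4% and 17.4% were called in either direction in these comparisons.

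Of 14 genes of channel turnover and trafficking, 2 were higher and 3 lower in the 600 culture than in the 300 culture, where 17.2% of all features were called. Cnksr3, a scaffold of the ENaC regulatory complex induced by aldosterone, rose by 0.44 ± 0.10 in the 600 culture and by 0.49 ± 0.10 in the 600 challenge, both over the 300 culture. Nedd4, the relative of Nedd4l, rose by 0.64 ± 0.15 in the 600 challenge (limma adjusted p = 0.00943), and the deubiquitinase gene Usp8 rose by 0.26 there. In that step 3 rose and 1 fell (Cav1, the caveolae protein, with a difference of -0.43), and in the 900 challenge over the 600 culture 1 rose and 4 fell, where 14.4% and 17.4% of all features were called. The falls there included the 14-3-3 protein genes Ywhab (-0.22) and Ywhae (-0.13), whose family binds phosphorylated Nedd4l. Among 12 measured kinase genes of the SGK and WNK pathways, Wnk4 and Stk39 rose in both challenges: Wnk4 by 0.42 in the 600 challenge and 1.20 in the 900 challenge, and Stk39, which encodes the kinase SPAK, by 0.51 and 0.34. Both were also higher in the 600 culture than in the 300 culture (0.95 and 0.67). Wnk4 averaged 2.38 in the 600 challenge and 1.96 in the 300 culture, with all arrays of both groups under the lower quartile. Counts for these kinases were 3 of 12 higher in the 600 challenge, 2 of 12 in the 900 challenge and 3 of 12 in the 600 culture, with none lower, against 6.36%, 6.43% and 8.33% of all features called higher.

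The glucocorticoid receptor gene Nr3c1 did not follow Nr3c2. It averaged 5.38 in the 600 challenge, 5.48 in the 600 culture and 5.59 in the 300 culture. It fell by 0.21 ± 0.06 in the 600 challenge (limma adjusted p = 0.0382), and its difference between the 600 and 300 cultures was -0.11 ± 0.06 (limma adjusted p = 0.284). Of 12 measured genes of receptor and ligand handling, 2 rose and 2 fell in the 600 challenge, none rose and 1 fell in the 900 challenge, and 1 was higher and 1 lower in the 600 culture than in the 300 culture. The shares of all features called in either direction were 14.4%, 17.4% and 17.2% in these comparisons. Fkbp5, a receptor co-chaperone that is itself a glucocorticoid target, fell by 0.66 ± 0.06 in the 600 challenge (limma adjusted p = 1.83e-06) and had a difference of 0.015 ± 0.06 in the 900 challenge. Abcb1a, the efflux pump gene for steroids and drugs, rose by 0.56 in the 600 challenge.

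Other corticosteroid target genes did not move as a block. Of 21 measured, 11 were higher and 5 lower in the 600 culture than in the 300 culture (median 0.26), 7 rose and 4 fell in the 600 challenge (median -0.004), and 7 rose and 4 fell in the 900 challenge (median 0.19). Over all features 17.2%, 14.4% and 17.4% were called in these comparisons. Fxyd4, the aldosterone-induced partner of the Na,K-ATPase in the collecting duct, averaged 7.11 in the 600 culture and 3.93 in the 300 culture, a difference of 3.17 ± 0.13, and is also held by the principal cell list. In the 600 challenge its difference from the 300 culture was -0.32 ± 0.13 (limma adjusted p = 0.136), as for Scnn1a a long-term difference without an acute one that passed. Scnn1a, however, lay under the lower quartile in both groups of that acute comparison. The transcription factor gene Zbtb16 (1.36), the cyclin kinase inhibitor gene Cdkn1c (1.53) and the metallothionein gene Mt2A (1.13) were higher in the 600 culture too. Pdk4, the pyruvate dehydrogenase kinase gene, rose in the 600 challenge (0.44) and in the 900 challenge (1.12), as Tsc22d3 did, while the Na,K-ATPase subunit gene Atp1b1 rose by 0.36 and 0.32. The level of Pdk4 in the 300 culture, 2.39, lay under the lower quartile on all arrays. Angptl4, Mt2A and Cdkn1c were also called higher in both challenges. Angptl4, however, was called lower in the 600 culture than in the 300 culture. The early aldosterone target Edn1, which encodes endothelin 1, was lower in the 600 culture than in the 300 culture (-1.18 ± 0.07) and fell further in the 900 challenge (-0.89 ± 0.07). Cebpd (-1.42) was also lower in the 600 culture, and fell in both challenges (-0.68 and -0.46). Ndrg2 had the largest fall of the list in the 600 challenge, with a difference of -0.86 ± 0.13 (limma adjusted p = 0.000304). It was called lower in the 900 challenge too, averaging 4.37 there and 5.10 in the 600 culture. The list holds genes that answer to many signals besides steroids. Of the 5 acid-sensing channels of the same degenerin family as ENaC, none passed in these 3 comparisons by limma.

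**Figure D4:**
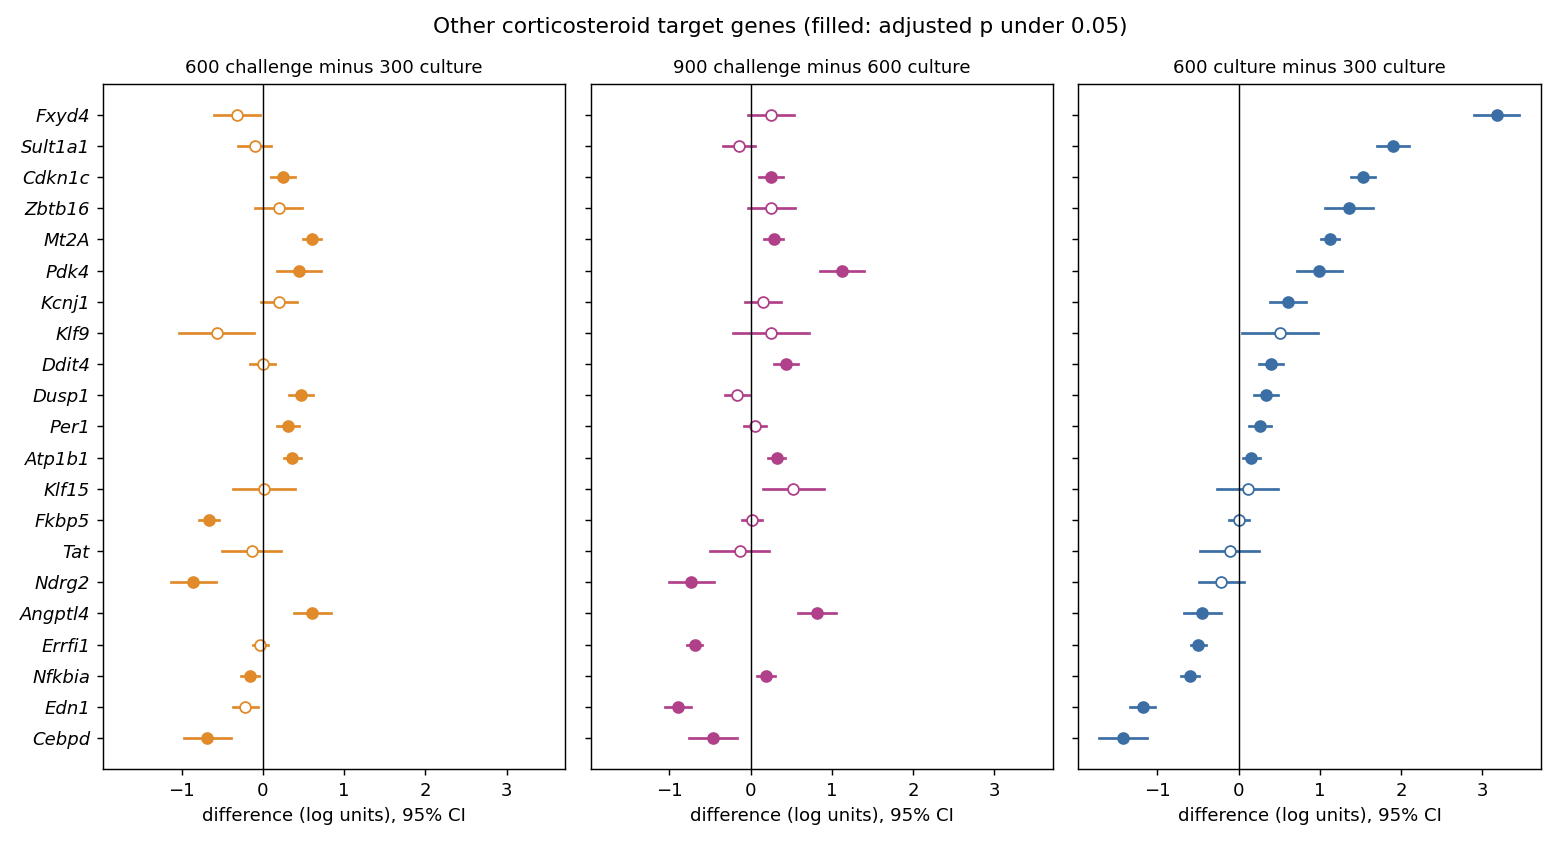
Differences in log units (points) with 95% confidence intervals (lines) of 21 other corticosteroid target genes in 3 comparisons, ordered by the difference between the 600 and 300 cultures and filled where the adjusted p is under 0.05. Fxyd4 (3.17) and Cebpd (-1.42) stand at the ends of that order, and Ndrg2 (-0.86), Cebpd (-0.68) and Fkbp5 (-0.66) fall most in the 600 challenge.

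The features most like each gene over the 18 arrays were named by Pearson correlation, as a description. The arrays come from 6 groups that began from 2 cultures, so the 18 points are not independent, and what the correlations follow was not tested. For Scnn1a they were Acer2, Bcam and Ces2c (r = 0.988 for each), for Nr3c2 Acadm, Car5b and Rassf7 (0.966, 0.960 and 0.960), and for Sgk1 Colec12, the water channel gene Aqp1 and Kif13b (0.977, 0.976 and 0.976). For Tsc22d3 they were Kiaa0040, Idh1 and Rab9a (0.990, 0.990 and 0.989), and for Nedd4l Ctc1, Cldn16 and Zfp949 (0.948, 0.943 and 0.941). For the dim features of Scnn1b, Scnn1g and Hsd11b2 the best value was 0.768, 0.762 and 0.764, for Prss58, Gpm6a and Defb28.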

How the data were processed

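The members, the pathway and marker lists and the tests were chosen with earlier results of these data known. Total RNA (Qiagen RNeasy) was biotin-labelled as whole-transcript cDNA with Affymetrix kits, per the labels' protocols. The deposited values are a log-scale score per array feature. The summarisation and normalization by the authors, like the logarithm's base, are not given in the sources used here. The series text names 4 pairwise comparisons of challenge against culture, made in BRB ArrayTools. Values run from 0 to 9.504, with array medians from 3.564 to 3.649, and the values were used without filter or further correction. The number of arrays limits the precision, and no detection calls were used.

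Groups were taken from the sample titles. For the third arrays of the 900 challenges the titles and source names number the replicate differently, and the title's number was used. Symbols are those of the platform's annotation: 15295 features have 1 symbol, 322 have several and 12711 are unnamed there. Of the first, 15264 matched RefSeq genes (GRCr8) by Entrez identifier, with 0 symbols changed. A gene with several features was represented by the feature with the highest mean. The text names the 8 members, for each member the 3 features most correlated with it, and genes of the pathway and marker lists, each list counted whole.

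The test had been planned on log values and was run on them as deposited with limma 3.58.1 in R 4.3.3: 6 group means over 18 arrays, contrasts, moderated variances (degrees of freedom 12 residual, 2.03 prior), with Benjamini-Hochberg adjustment across the 28328 features. The alternatives were a fit of only the groups compared, arrays centred on their medians, quantile normalization, a filter on dim features, the replicate number as a block, a variance trend with robust prior, and each array left out in turn. Each member has 1 feature, so no other feature could be tried. Same-numbered arrays of compared groups had deviations correlated between -0.129 and 0.073, so the numbers were not taken as pairs. The limma steps were tested on simulated data. Tables and figures were made in Python 3.11.15.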

Additional observations from a re-analysis of the deposited data

Results flagged for a closer look

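Tsc22d3 is the gene of the 8 for which a direct test of the difference between the osmotic steps passed. Its rise in the 900 challenge over the 600 culture exceeded its rise in the 600 challenge over the 300 culture by 0.53 log units (limma adjusted p = 0.00105). Over all features 3.52% were called as larger and 7.58% in either direction. For Scnn1a the difference was 0.33 (limma adjusted p = 0.0729), and it passed with dim features left out (adjusted p = 0.0464) and without replicate 1 of the 900 challenge (adjusted p = 0.039). The steps also differ in starting osmolality and in the level of principal cell markers, and their part in these differences was not tested.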

How the results depend on the processing

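Of 1026 recomputed values of the 8 genes, 1003 kept their side of the threshold, among them 40 uncalled values that changed sign, 8 lost the call, 15 gained it and 0 called values reversed. The numbers did not pair the arrays, and with the replicate number as a block the counts of genes called did not move (5 in the 600 against the 300 culture, for example). Genes called in the 600 challenge with cyclosporin A against the 300 culture were 1, 2 after quantile normalization, and 1 to 2 with each array left out. In the 900 challenge against the 600 culture they were 2, 1 with a trend and robust prior, 1 with only these groups fitted, and 1 to 2 with each array left out. In the 900 challenge with cyclosporin A against the 600 culture they were 1, 3 with the trend and 1 to 2 with each array left out. In the 600 challenge against the 600 culture they were 4, 2 with only these groups and 3 to 5 with each array left out, and in the 600 against the 300 culture 5 to 6 with each array left out. For the difference of steps they were 1, 2 with dim features left out (5 genes tested) and 1 to 2 with each array left out. Features called with only the groups compared numbered 2479 (against 3982), 2860 (against 4934), 3059 (against 5040) and 3071 (against 4655) in the same comparisons. For cyclosporin A itself they numbered 0 in both challenges (against 116 in the 600 and 143 in the 900 challenge), 178 and 233 with dim features left out, 268 and 385 with the trend, and 39 to 67 and 43 to 76 with each array left out. For the difference of the drug's effects they numbered 13, 5 with only these groups, 27 with dim features left out, 43 with the trend and 4 to 17 with each array left out. At an unadjusted p under 0.05 there were 2406 and 2990 features for the drug. The cause of these moves was not tested, except that leaving out groups or arrays leaves fewer degrees of freedom. Trying another feature of a gene was not run, since each has 1.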
